A study of Mus musculus with 3 samples.

Results

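The genes described here are 10 components of interleukin 6 (IL-6) family signaling in mouse liver: the receptor chains Il6ra, Il6st, Osmr and Lifr, the kinase Jak2, the transcription factor Stat3, and the inhibitors Socs1, Socs2, Socs3 and Cish. They were taken by gene symbol from the deposited expression tables, and all 10 were found among the 23361 genes listed. Each of the 10 had an FPKM (read fragments normalised to transcript length and to the mapped total of the library) of at least 1 in at least 1 sample, as did 10792 genes in all. Only Socs1 passed through the IR sample alone, being under 1 in both others.

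There were 3 mRNA libraries from livers of C57BL/6J mice, labelled male and 8 to 10 weeks old, with 1 library per group. The sham group was opened without clamping and kept for 90 min. In the warm ischemia (WI) group the vessels and bile duct to the left and median lobes were clamped for 90 min. In the ischemia followed by reperfusion (IR) group the same clamping was followed by 120 min of reperfusion, so the sham group does not match the IR group in time after surgery. All mice were fasted before surgery under chloral hydrate. The groups had 6 mice each, and the sources used here do not give the number of mice behind a library. No difference between the samples therefore has a replicate check, and no test between conditions was possible. The error given with each FPKM is its 95% bounds from the authors' Cuffdiff run, which cover its counting model but no difference among animals.

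The libraries did not all match their label of sex. Xist, the RNA made from the inactive X chromosome of females, reached 18.9 FPKM with sham surgery and 20.1 with WI but 1.29 in the IR sample. The Y-linked genes Eif2s3y and Uty were listed at 0 in the sham and WI samples and had 13.2 and 1.28 in the IR sample. Ddx3y, also Y-linked, was at 0, 0.00849 and 8.58 in the same order, and Kdm5d was at 0, 0 and 0.669. Comparisons with the IR sample thus join samples that differ in these genes, and reperfusion cannot be told apart from that difference in them. The WI and sham samples did not differ in this way. The summed FPKM of the IR sample was 712423, against 487912 in the WI sample and 475754 in the sham sample. When all samples were rescaled to a common sum, the median log2 change of all genes from WI to IR moved from 0.03 to -0.40, and the share of genes higher at least 2-fold in the IR sample went from 5.78% to 2.90% while the share lower went from 1.43% to 7.08%. Calls of the 10 genes that change with this scaling are given on both scales.

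IL-6 family cytokines bind a specific receptor chain (IL-6 to Il6ra, oncostatin M to Osmr, LIF to Lifr) which pairs with the shared chain gp130, encoded by Il6st. JAK kinases bound to these receptors then phosphorylate STAT3, which enters the nucleus and, in hepatocytes, drives acute phase genes and also Socs3. SOCS3 binds gp130 and JAK and shuts the signal off, whereas Cish and Socs2 are best known as targets of STAT5 that limit growth hormone signaling, and Socs1 as a brake on interferon signaling.

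The promoters of the genes that rose in the IR sample are shown first, so that any STAT motif near their starts can be seen beside their values. RefSeq promoter windows in GRCm38.p6 (the build called mm10) matched 9 of the 10 genes, all but Socs2. Each window holds 250 bases before the start of the gene and 50 after it, of which the first 270 are printed below, 5′ to 3′ on the gene's strand. Capitals mark the STAT motif TTCNNNGAA or the AP-1 motif TGANTCA, both of which read the same on both strands. The printed window of Socs3 is chr11:117969347-117969616 (minus strand), that of Cish chr9:107296409-107296678 (plus strand), that of Socs1 chr16:10785517-10785786 (minus strand), that of Osmr chr15:6874294-6874563 (minus strand) and that of Stat3 chr11:100939521-100939790 (minus strand).
Socs3: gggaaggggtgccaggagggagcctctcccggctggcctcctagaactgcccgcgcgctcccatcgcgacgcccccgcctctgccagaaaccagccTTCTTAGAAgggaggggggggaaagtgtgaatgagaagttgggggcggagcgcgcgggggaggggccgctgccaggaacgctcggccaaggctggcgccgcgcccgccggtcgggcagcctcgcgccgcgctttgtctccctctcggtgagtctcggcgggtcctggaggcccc
Cish: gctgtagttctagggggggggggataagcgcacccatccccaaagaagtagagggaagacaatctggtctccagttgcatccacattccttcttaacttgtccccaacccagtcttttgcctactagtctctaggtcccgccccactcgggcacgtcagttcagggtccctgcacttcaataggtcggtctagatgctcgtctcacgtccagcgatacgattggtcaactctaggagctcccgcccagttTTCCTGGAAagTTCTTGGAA
Socs1: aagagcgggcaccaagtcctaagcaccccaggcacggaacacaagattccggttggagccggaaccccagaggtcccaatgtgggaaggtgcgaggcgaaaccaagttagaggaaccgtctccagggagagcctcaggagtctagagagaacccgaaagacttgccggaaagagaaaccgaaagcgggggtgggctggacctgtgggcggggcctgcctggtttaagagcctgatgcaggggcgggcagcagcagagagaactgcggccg
Osmr: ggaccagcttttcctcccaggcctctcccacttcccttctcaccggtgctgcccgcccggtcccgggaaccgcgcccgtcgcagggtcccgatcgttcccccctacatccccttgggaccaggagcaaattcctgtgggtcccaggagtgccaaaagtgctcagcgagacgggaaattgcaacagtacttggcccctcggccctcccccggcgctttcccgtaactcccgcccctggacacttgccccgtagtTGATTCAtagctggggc
Stat3: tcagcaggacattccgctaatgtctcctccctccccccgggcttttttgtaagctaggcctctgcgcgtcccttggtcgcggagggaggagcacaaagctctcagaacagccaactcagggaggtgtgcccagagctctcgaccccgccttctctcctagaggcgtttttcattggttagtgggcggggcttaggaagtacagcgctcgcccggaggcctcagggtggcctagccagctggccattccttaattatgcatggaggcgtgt

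Socs3 held 1 match to the STAT motif, TTCTTAGAA, beginning at position -154 from its start. Cish held 2 matches, TTCCTGGAA from position 1 and TTCTTGGAA from position 12 of the RefSeq start, which lies 30 bases before the start of the locus in the expression tables. Osmr held 1 AP-1 match, TGATTCA, from position 4. No match to either motif was found in the windows of Socs1, Stat3, Il6ra, Il6st, Jak2 or Lifr. Over all 32851 RefSeq windows of this length 8.30% held the STAT motif and 7.81% the AP-1 motif. A match here is a match of letters in a 300-base window only.

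Socs3 showed the largest difference of the 10 genes. It lies at chr11:117966087-117969366 of mm10, and it measured 3.14 FPKM in sham liver (95% bounds 1.46 to 4.82), 5.38 in WI liver (2.73 to 8.02) and 109 in IR liver (50.5 to 167). The IR value stood far above both others, and its lower bound was above their upper bounds. From WI to IR the FPKM ratio was 20.3 and the change 4.11 on the scale of log2(FPKM + 1), the scale of every change below. That change ranked 31st of 10792 genes counted from the top, and the change of 4.73 from sham to IR ranked 15th. From sham to WI the change was 0.62, under 2-fold and with overlapping bounds. In the IR sample Socs3 had the highest FPKM of the 10 genes, where it had been eighth in the sham sample and sixth in the WI sample. Neighbours in the order of FPKM mostly could not be separated, since within a sample only Jak2 and Osmr in the WI sample were next to each other without overlapping bounds.

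Socs2 and Cish, the inhibitors linked to growth hormone and STAT5, had another order of values than Socs3. Socs2, at chr10:95411490-95416857, measured 16.0 FPKM in sham liver (8.19 to 23.8), 6.56 in WI liver (3.27 to 9.84) and 58.8 in IR liver (27.6 to 89.9). It fell by 1.17 from sham to WI, with bounds that overlapped, and rose by 2.98 from WI to IR with separate bounds. Cish, at chr9:107296689-107301961, measured 7.75 FPKM in sham liver (3.97 to 11.5), 3.81 in WI liver (1.77 to 5.85) and 21.5 in IR liver (11.6 to 31.5). Its change was -0.86 from sham to WI, short of 2-fold, and it rose by 2.23 from WI to IR with separate bounds. Both were therefore lowest in the WI sample and highest in the IR sample, as were Socs1 and Osmr. Socs3 was lowest in the sham sample, and bounds of sham and WI overlapped for each of these genes. Against sham the IR sample was higher by 1.81 for Socs2 and by 1.36 for Cish, the latter becoming 0.81 on a common sum. The FPKM of Socs2 was 2.07 times that of Cish in the sham sample, 1.72 times (WI) and 2.73 times (IR). A fall of at least 2-fold in the WI sample, followed by a rise of at least 2-fold to at least 2-fold above sham, was seen for 18 of 10792 genes (0.167%). Socs2 was 1 of them, and this pattern was chosen after its values were seen.

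Socs1, at chr16:10783809-10785536, was the least abundant of the 10 genes in the sham and WI samples. It measured 0.424 FPKM in sham liver (0.0209 to 0.828), 0.400 in WI liver (0 to 0.874) and 4.49 in IR liver (1.78 to 7.19). The first pair of values lay close together and the IR value was separate from both. It rose by 1.97 from WI to IR and by 1.95 from sham to IR, a direction that the filter set. The FPKM ratio of 11.2 between IR and WI rests on a WI value whose lower bound is 0, so it is loosely set. Together the FPKM of the 4 inhibitors summed to 27.3 (sham), 16.1 (WI) and 194 (IR), and Socs3 made up 11.5%, 33.3% and 56.2% of that sum.

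**Figure D1:**
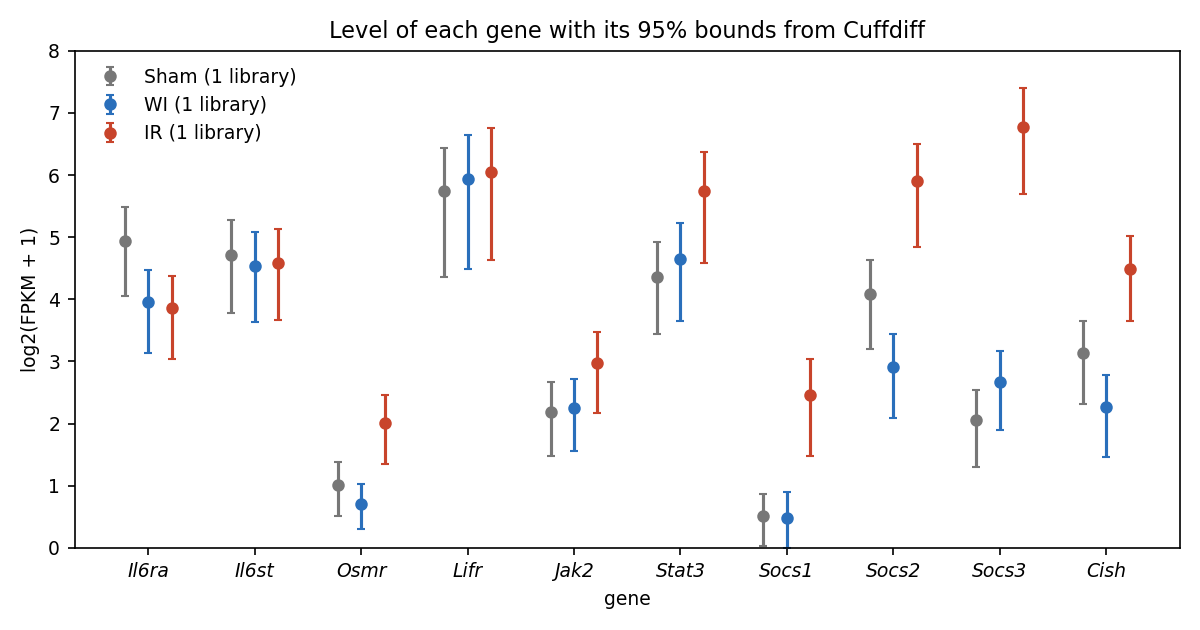
Level of each of the 10 genes as log2(FPKM + 1) in the sham, WI and IR samples, 1 library each, with bars for the 95% bounds from Cuffdiff. Socs3 reaches an FPKM of 109 in the IR sample from 3.14 and 5.38, while Il6st and Lifr stay at similar heights in all 3 samples.

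Among the receptor chains only Osmr had separate bounds between the WI and IR samples. Osmr, the oncostatin M receptor, at chr15:6813577-6874313, measured 1.01 FPKM in sham liver (0.426 to 1.60), 0.639 in WI liver (0.238 to 1.04) and 3.03 in IR liver (1.54 to 4.51). It rose by 1.30 from WI to IR, which was 0.90 on a common sum, and by 1.0003 from sham to IR, barely past the threshold of 2-fold (0.59 on a common sum). Il6st, the shared chain, at chr13:112464070-112506860, measured 25.3 FPKM in sham liver (12.8 to 37.8), 22.2 in WI liver (11.4 to 33.0) and 22.9 in IR liver (11.7 to 34.1). These values differed by far less than their bounds, and the change from WI to IR was 0.04 with an approximate interval from the bounds of -0.910 to 0.997. Lifr, at chr15:7129572-7197489, had the highest FPKM of the 10 genes in the sham and WI samples, at 52.7 (19.6 to 85.7) and 60.0 (21.4 to 98.6), and reached 65.2 in IR liver (23.8 to 106.6). The change from WI to IR was 0.12 with an interval of -1.16 to 1.40, so that a 2-fold difference either way is within the error. On a common sum the changes of Il6st and Lifr from WI to IR turned negative, to -0.47 and -0.42, close to the median of all genes on that scale.

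Il6ra, which encodes the chain that binds IL-6 itself, fell from sham to IR, where Osmr rose. It lies at chr3:89869324-89913162, and it measured 29.8 FPKM in sham liver (15.6 to 44.0), 14.5 in WI liver (7.76 to 21.1) and 13.5 in IR liver (7.26 to 19.8). The difference lay between the sham sample and the other two, and the bounds of all 3 samples overlapped, though on a common sum those of sham and IR did not. Its change was -0.99 from sham to WI, short of 2-fold (-1.03 on a common sum and -1.02 by the median ratio, both past it), and it fell by 1.08 from sham to IR, whereas from WI to IR it was -0.09 (-0.59 on a common sum). The ratio of Il6st to Il6ra in FPKM was 0.849 (sham), 1.54 (WI) and 1.69 (IR). Summed over the 4 receptor chains, FPKM was 109, 97.3 and 105 in the sham, WI and IR samples. The summed inhibitors thus amounted to 0.251 of the summed receptors under sham surgery, 0.166 after WI and 1.85 after IR.

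Stat3, at chr11:100886810-100939511, measured 19.5 FPKM in sham liver (9.84 to 29.2), 24.0 in WI liver (11.6 to 36.3) and 52.3 in IR liver (23.05 to 81.6). It rose by 1.10 from WI to IR and by 1.38 from sham to IR, with overlapping bounds in both comparisons, and on a common sum these changes were 0.56 and 0.81, under 2-fold. Jak2, a kinase of these and of the growth hormone receptors, at chr19:29251828-29313080, measured 3.56 FPKM in sham liver (1.79 to 5.33), 3.75 in WI liver (1.95 to 5.55) and 6.83 in IR liver (3.51 to 10.2). The IR value was the highest, yet its change of 0.72 from WI did not reach 2-fold and the bounds overlapped. Per FPKM of Stat3, that of Socs3 was 0.161 (sham), 0.224 (WI) and 2.08 (IR).

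Counted over the 10 genes, 1 (Socs2) was lower at least 2-fold in the WI sample than in sham and 0 were higher. Among all 10792 genes 1.85% changed at least 2-fold in this comparison and 1.1% were lower. Bounds were separate for 0 of the 10 genes, against 0.676% of all genes. From WI to IR 6 of the 10 genes rose at least 2-fold (Socs3, Socs2, Cish, Socs1, Osmr and Stat3), where 5.78% of all genes did. Of these 6, all but Stat3 had separate bounds, and 3.22% of all genes were higher with separate bounds. Socs1 passed the filter through the IR sample alone, so for Socs1 the filter set the direction in both comparisons with IR. From sham to IR the same 6 genes were higher at least 2-fold, against 5.35% of all genes, and Il6ra was lower, as were 2.15% of all genes. Bounds were separate for Socs1, Socs2, Socs3 and Cish, and for 2.7% of all genes in that direction. The bounds of Cish were barely apart (an upper bound of 11.52 in sham and a lower bound of 11.56 in IR), and by the median ratio it dropped out, leaving 3 genes. On a common sum 3 genes were separate, Socs1 and Socs3 upward and Il6ra downward. The median change of the 10 genes was -0.10 from sham to WI, 1.20 from WI to IR and 1.18 from sham to IR, where the medians of all genes were 0.02, 0.03 and 0.05. On a common sum the medians of the 10 genes from WI to IR and from sham to IR were 0.73 and 0.70. The comparisons share samples. The same IR library enters both comparisons in which the 6 genes were higher, so these are not independent, and the sham and WI libraries each enter a pair of comparisons as well.

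**Figure D2:**
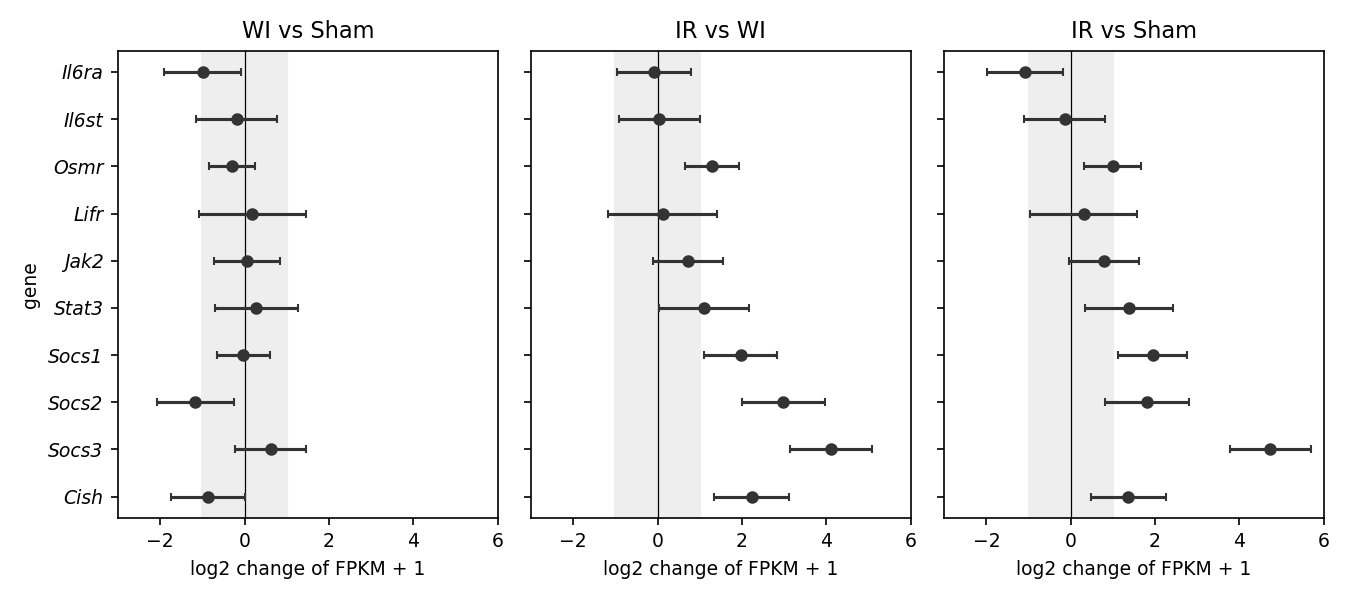
Change of log2(FPKM + 1) for the 10 genes in each pair of samples, 1 library each. Bars are approximate 95% intervals made from the Cuffdiff bounds, and the grey band spans changes under 2-fold. Only Socs2 lies below the band between WI and sham, and 6 genes lie above it between IR and WI.

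**Figure D3:**
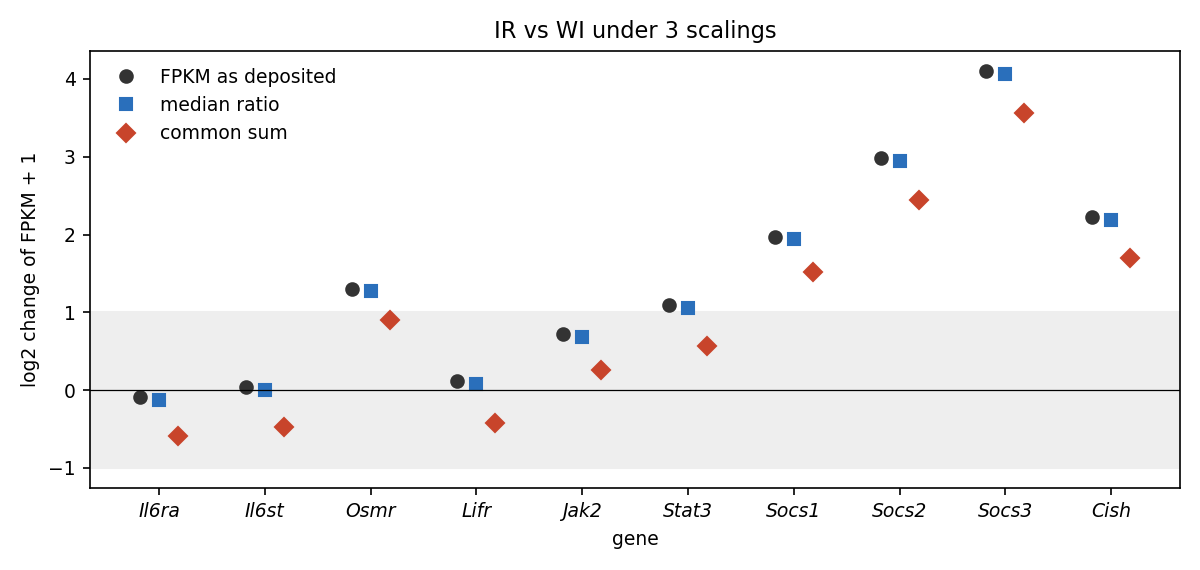
Change of log2(FPKM + 1) from the WI to the IR sample for the 10 genes, with FPKM as deposited, divided by the median ratio of each sample, or rescaled to a common sum. Osmr and Stat3 drop into the grey band of changes under 2-fold on the common sum, while Socs1, Socs2, Socs3 and Cish stay above it on all 3 scales.

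The ligands of these receptors were scarce. Of 8 listed, 2 reached an FPKM of 1 in any sample. Osm, which encodes oncostatin M, a product of neutrophils and macrophages, measured 0.0199 FPKM in sham liver (0 to 0.0604), 0.0704 in WI liver (0 to 0.152) and 2.82 in IR liver (1.20 to 4.44). It rose by 1.83 from WI to IR with separate bounds, having passed the filter through the IR sample alone. Il6 was listed at 0 in the sham sample and had an FPKM of 0.0373 (WI) and 0.152 (IR), with a lower bound of 0 in both. Lif had 0.0292, 0.0436 and 0.197 in the same order, and Il11 was listed at 0, 0 and 0.0496. Ctf1, the cardiotrophin gene, was at 3.68, 4.56 and 2.32 with overlapping bounds.

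Other signal transducers mostly stayed under 2-fold. Of 9 other JAK and STAT genes 8 passed the filter, and 0 rose from WI to IR. Stat5a, which acts downstream of growth hormone, was at 1.81, 2.41 and 4.96, and rose by 1.08 from sham to IR (without a call on a common sum). Its more abundant relative Stat5b was at 8.18, 10.8 and 11.0 and did not change 2-fold in any comparison. The 2 other receptor chains that passed the filter, Cntfr and Il11ra1, did not change 2-fold in any comparison.

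Among 12 other SOCS genes, PIAS genes and phosphatases that oppose JAK and STAT, 2 rose from WI to IR and 0 fell. Of all genes 5.78% rose and 1.43% fell at least 2-fold there. Ptpn2, a phosphatase that acts on JAK1, JAK3 and nuclear STATs, measured 6.78 FPKM in sham liver (3.11 to 10.5), 5.25 in WI liver (2.16 to 8.34) and 36.2 in IR liver (16.5 to 55.9). It rose by 2.57 from WI to IR with separate bounds. Its relative Ptpn1, which acts on JAK2 and TYK2, was at 8.43, 6.62 and 16.5 and rose by 1.20 with overlapping bounds, a rise that was not called on a common sum. Socs4, Socs5, Socs6 and Socs7 were between an FPKM of 1.12 and 3.40 in every sample and did not change 2-fold. The SOCS genes that rose were therefore the 4 inhibitors Socs1, Socs2, Socs3 and Cish out of 8 measured.

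Genes of the growth hormone axis, the pathway that Cish and Socs2 restrain, were mixed. All 8 listed genes passed the filter. From sham to WI Bcl6, a repressor of STAT5 target genes, rose by 1.30 and Onecut1, a hepatocyte transcription factor gene, fell by 1.58, both with separate bounds. From WI to IR Egfr, the receptor of epidermal growth factor, rose by 1.964, with FPKM of 50.5, 40.4 and 160.7 and bounds that overlapped. In that comparison 0 of the 8 genes fell (2 on a common sum), against 1.43% of all genes (7.08% on a common sum). The growth hormone receptor gene Ghr was at 166, 188 and 150.6, and Igf1 at 142, 135 and 198, with broad bounds in all samples. For these genes, and for Socs2 and Cish, reperfusion cannot be told apart from the difference in sex-linked genes described above.

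Genes listed as STAT3 targets were taken in an early and an acute phase list. STAT3 activity and binding were not measured, and whether STAT3 set the changes of these genes was not tested. Of the 15 early response genes 13 passed 2-fold upward between WI and IR (12 on a common sum), 10 of them with separate bounds. Their median change was 2.12. Of all genes 5.78% rose at least 2-fold there (2.90% on a common sum), and 3.22% were higher with separate bounds. Timp1, 1 of the 13, was at 0.149 (sham), 0.175 (WI) and 3.61 (IR) with overlapping bounds. It passed the filter through the IR sample alone, so for Timp1 the filter set the direction. The largest rises belonged to Il1rn, the IL-1 receptor antagonist, at 3.89, to Gadd45b at 3.55 and to Cebpd, a transcription factor of the acute phase, at 3.01. Fos and Egr1 were the 2 that did not reach 2-fold, and Fos had already risen by 1.69 from sham to WI. Cebpd, Myc and Gadd45b fell from sham to WI, by 1.34, 1.47 and 1.48, before they rose. Of the 19 acute phase genes that passed the filter (20 listed) 10 rose from WI to IR, 4 of them on a common sum, and 1 fell. Separate bounds were seen for Saa3, which rose by 2.10, and for Nnmt, which rose by 1.73. Serpina3n rose by 2.62, and the fibrinogen chain genes Fga, Fgb and Fgg by 1.34, 1.03 and 1.19, with overlapping bounds and high FPKM in all samples. Orm2 fell by 1.31. Saa1 and Saa2, among the most inducible plasma proteins of the acute phase, fell by 1.45 and 1.26 from sham to WI and rose by 1.38 and 1.59 from WI to IR, so that they ended within 2-fold of sham. These paralogs are near-identical, and how reads were divided between them is uncertain. Lcn2, the lipocalin of the acute phase, rose by 1.47 from sham to WI with overlapping bounds.

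**Figure D4:**
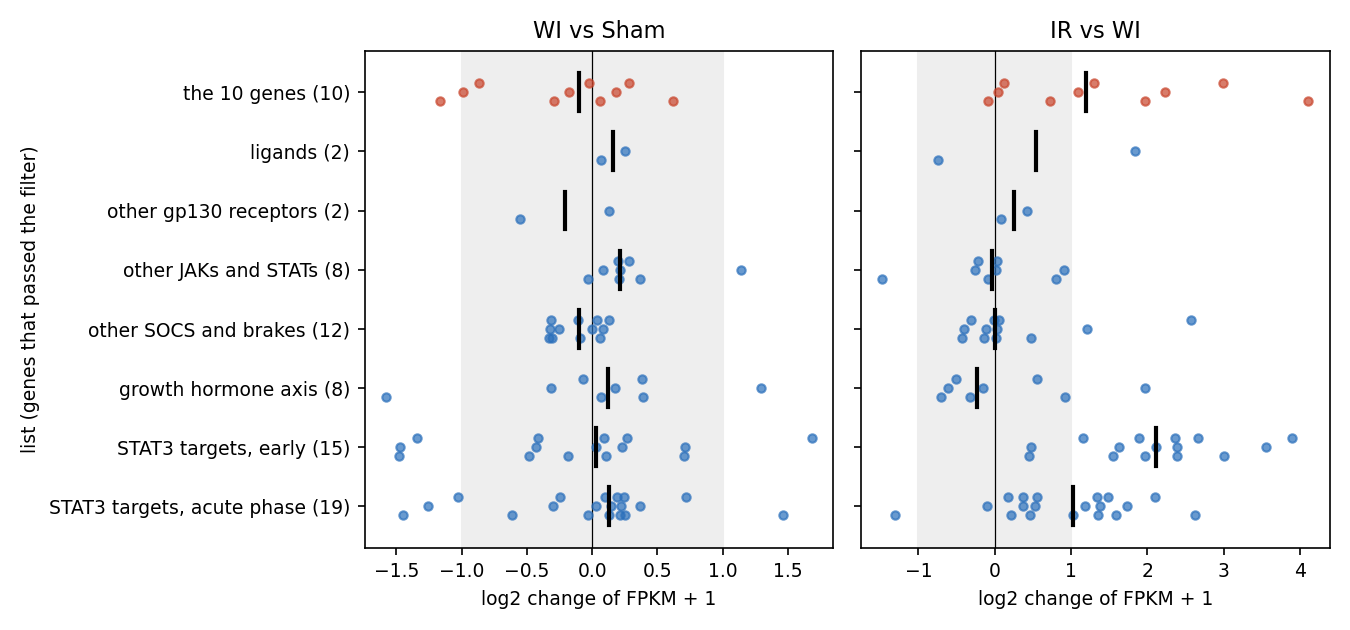
Change of log2(FPKM + 1) for each gene of the 10 described and of 7 further pathway lists, from sham to WI on the left and from WI to IR on the right. Each point is a gene that passed the filter, the black line is the median of the list and the grey band spans changes under 2-fold. The genes listed as early STAT3 targets have a median of 2.12 in the right panel and 0.03 in the left.

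Markers of cell types also differed between the samples. Of 8 neutrophil genes 7 were found and 6 passed the filter. These 6 were higher in IR than in WI with separate bounds, where 3.22% of all genes were. However, Cxcr2 and Mmp8 passed the filter through the IR sample alone, so for these 2 the filter set the direction. The summed FPKM of the list was 25.5 (sham), 19.3 (WI) and 469 (IR), although Mpo, which did not pass, was listed at 0 there. The summed FPKM of 8 Kupffer cell genes was 497, 254 and 165, with 0 of them at 0 in any sample. Of the 8, 2 fell at least 2-fold from sham to WI and 6 from sham to IR, against 1.1% and 2.15% of all genes. Within that list Marco (20.9, 12.6 and 25.3) and Cd68 (18.5, 12.3 and 18.5) were instead higher in IR than in WI. Il6ra was lower in the WI and IR samples than in sham. Its change from WI to IR was -0.09 (-0.59 on a common sum). The 6 neutrophil genes that passed were highest in the IR sample, as was Osm. So were all the genes described here except Il6ra and Il6st, so this order was not particular to Socs3 or Osmr. For Osm and Socs1, as for Cxcr2 and Mmp8, the filter set the direction. In bulk tissue fewer cells of a type and less RNA per cell cannot be told apart, and the part of these cells in the results was not tested. Summed FPKM of 6 endothelial genes was 124, 88.2 and 109, and without Lyve1, left out after its values were seen (11.2, 2.73 and 33.4), it was 112, 85.5 and 76.0. That of 6 stellate cell genes was 145, 103 and 106, and that of 6 lymphocyte genes 7.22, 6.18 and 2.42. Hepatocyte genes were abundant, with a summed FPKM of 15497, 11777 and 17733 over 7 genes, and Alb was listed at 0 in all samples, where Cuffdiff marked its locus as holding too many fragments.

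Genes nearest to the 6 that rose were sought by the Euclidean distance between their changes from sham to WI and from WI to IR, over 3 samples. Nearest to Socs3 were Dnajb1, a heat shock co-chaperone, at a distance of 0.287, Selenbp2 at 0.372 and Hsd3b5 at 0.382. The last pair are known as male-biased genes of mouse liver, and both have close paralogs with which they may share reads. Nearest to Socs2 were Cebpd (0.172), the metallothionein Mt1 (0.173) and the IL-1 receptor Il1r1 (0.395), each of them lowest in the WI sample. Cish lay nearest to Hdc, 1700017B05Rik and Rsad2, and Socs1 to Timp1, Hspb8 and Ccr1. Osmr lay nearest to Clic4, Ube2c and Map4k4, and Stat3 to 3110082I17Rik, Mrps18b and Tnfrsf1a. With so few samples many genes share such a course, and nearness says only that these values were alike.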

How the data were processed

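The deposited tables were 3, 1 per sample. The authors mapped reads to mm10 with TopHat2 2.0.9, per the submitters' processing notes, and computed FPKM per gene with lower and upper 95% confidence bounds with Cuffdiff (Cufflinks 2.0.2), and the gene annotation is not given in the sources used here. All 10 genes had status OK in every sample.

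From these tables log2(FPKM + 1) was compared between samples over the 10792 genes that reached an FPKM of 1 in some sample. The pseudocount of 1 understates changes of genes with low FPKM. A change of at least 2-fold in FPKM + 1 was called, and bounds were called separate when they did not overlap. Approximate intervals of a change combine both bounds by error propagation. The files hold no counts. The modal ratio between samples over genes with FPKM under 0.15, read as the relative worth of 1 fragment, put 1 fragment in the IR sample at 1.40 times its FPKM in the WI sample and 1.26 times that in sham, so that by this estimate the IR sample rests on the fewest fragments per FPKM. The paper also lists the fewest aligned read pairs for the IR library, by smaller margins than this estimate. Cuffdiff marked 7 genes as holding too many fragments in the IR sample and 1 in each other sample. Other pseudocounts, fold thresholds, filters, scalings and a looser rule on bounds were tried as alternatives.

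Named genes were the 10 genes, listed pathway genes past 2-fold (at most 3 rises and 3 falls per list and comparison, with Il6, Lif, Osm and Il11 in any case), sex-linked genes and the 3 nearest genes of each gene that rose. Other genes were named after their values were seen. A listed gene that this rule names is not reported here. The genes and lists were chosen with earlier results of these data known. Locus starts were shifted by 1 base to count from 1. The calling rules were run on data with planted changes far above 2-fold, which does not check calls near the threshold. Computation ran in Python 3.11.15 with pandas 2.3.3, numpy 2.4.6 and scipy 1.17.1, and figures in matplotlib 3.10.9.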

Additional observations from a re-analysis of the deposited data

How the results depend on the processing

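Counts of genes past 2-fold depended most on the threshold. Between WI and sham 1 of the 10 genes was called, and this became 3 with a pseudocount of 0.1 or 0.01 (Il6ra and Cish were added), 4 at 1.5-fold, 0 at 4-fold, and 2 on a common sum or by the median ratio (Il6ra added). The share of all genes called in either direction went from 1.85% to 3.54% and 4.14% with these pseudocounts. It was 7.41% at 1.5-fold, 0.222% at 4-fold, 1.95% on a common sum and 1.91% by the median ratio. With FPKM outside the bounds of the other sample in place of separate bounds, 3 genes were called between WI and sham instead of 0. Between IR and sham 7 were called instead of 4. This looser rule called 2.59% and 11.1% of all genes in these comparisons. Between IR and WI 6 were called, and 3 (Socs2, Socs3 and Cish) at 4-fold. Of all genes 7.21% were called in that comparison in either direction, and 1.80% at 4-fold. Separate bounds in that comparison went from 5 to 3 with FPKM of at least 5, which leaves Socs1 and Osmr untested. Between IR and sham 7 were called, 1 (Socs3) at 4-fold and 4 on a common sum, where Stat3, Osmr and Cish were no longer past 2-fold. Of all genes 7.50% were called there in either direction, 1.54% at 4-fold and 11.7% on a common sum. Separate bounds there went from 4 to 3 on a common sum (Socs2 and Cish lost, Il6ra gained) and by the median ratio (Cish lost). Over other pseudocounts and scalings, 120 changes of single genes were recomputed, of which 108 kept their side of 2-fold, 6 lost it and 6 gained it. No paired analysis was possible because each group has 1 library. Leaving out a library was not possible either.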
